A study of Homo sapiens with 6 samples.

Results

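R-loop peaks of Ras-senescent fibroblasts were set against those of proliferating fibroblasts, peak by peak, to describe how single peaks differed between the states. The members were all peaks on chromosomes 1 to 22 and X in the RH-MNase list of each state, 101607 proliferating and 85405 senescent. Together they were 187012 of the 197102 peaks in the 3 RH-MNase lists of the series. The cells were wild-type IMR90, an established line of human embryonic lung fibroblasts, kept at 2% oxygen. Proliferating cells carried a control vector, senescent cells expressed ectopic Ras, and quiescent cells were starved. Which Ras construct was used is not stated in the labels. The series holds 6 libraries, 1 for each of the 2 MNase fusions in each state, so a comparison is between 2 single libraries and carries no test. Libraries made with GST-MNase, the background enzyme, are not analysed here. Read depth is unknown, and stronger signal and a deeper library cannot be told apart, nor can fewer cells with an R-loop and less signal in each cell. All 9 fibroblast marker genes, such as COL1A1 and VIM, had a proliferating peak at their locus and 7 had a senescent one. Among 23 markers of other cell types, 18 and 15 had one. A peak is not a level of expression, so these counts name no cell type.

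R-loops form when a transcript pairs with its DNA template and leaves the other DNA strand single. They are common at promoters rich in G and C, where G on the displaced strand steadies the hybrid, and at the ends of genes. RNase H, helicases and splicing factors remove or prevent them. MapR sends micrococcal nuclease to RNA-DNA hybrids by joining it to RNase H (RH-MNase), which serves to cut and release the chromatin around them. Ras-induced senescence is a lasting arrest that follows an oncogene signal. It brings CDK inhibitors, feedback on the MAPK pathway, heterochromatin foci and secretion of cytokines, proteases and growth factors, called the senescence-associated secretory phenotype (SASP).

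Each peak received a fate from its overlap of at least 1 bp with the other list. A proliferating peak with no partner was lost, and a senescent peak with no partner was new. A peak matched to a single partner that matched nothing else was narrowed when the senescent width was at most 0.75 of the proliferating width, widened in the reverse case, and kept in width between. A proliferating peak over 2 or more senescent peaks was split, a senescent peak over 2 or more proliferating peaks was fused, and any other arrangement was complex. These words describe the lists and not a process followed in time.

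To show what lay under peaks of each fate, the 250 bases before the start site of 7 named genes follow, 5′ to 3′ on the gene's strand, from the RefSeq promoter table (GRCh38.p14). Capitals mark each run of 4 or more G (GGGG) or C (CCCC), counted on the printed strand so that a C run is a G run on the other strand. Among 22000 protein-coding promoter windows of this length, 77% held GGGG, 75.7% held CCCC and 91.9% held either. H3C6 (chr6:26223928-26224177, plus strand) and JKAMP (chr14:59484267-59484516, plus) lay under lost peaks. RND3 (chr2:150487668-150487917, minus) lay under a narrowed peak, ID2 (chr2:8681806-8682055, plus) under a split one and RANBP10 (chr16:67806561-67806810, minus) under one that kept its width. CSF2 (chr5:132073539-132073788, plus) lay under a widened peak and BPIFB3 (chr20:33053653-33053902, plus) under a new one.
H3C6: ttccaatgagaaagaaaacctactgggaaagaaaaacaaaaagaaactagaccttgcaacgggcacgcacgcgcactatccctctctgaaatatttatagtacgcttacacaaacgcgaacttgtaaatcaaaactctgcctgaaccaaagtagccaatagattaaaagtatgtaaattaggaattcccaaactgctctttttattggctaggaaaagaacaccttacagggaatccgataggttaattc
JKAMP: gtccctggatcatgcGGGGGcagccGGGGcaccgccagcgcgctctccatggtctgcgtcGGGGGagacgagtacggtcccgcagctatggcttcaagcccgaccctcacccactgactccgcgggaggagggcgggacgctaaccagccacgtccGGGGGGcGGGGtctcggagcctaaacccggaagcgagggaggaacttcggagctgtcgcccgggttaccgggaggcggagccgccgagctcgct
RND3: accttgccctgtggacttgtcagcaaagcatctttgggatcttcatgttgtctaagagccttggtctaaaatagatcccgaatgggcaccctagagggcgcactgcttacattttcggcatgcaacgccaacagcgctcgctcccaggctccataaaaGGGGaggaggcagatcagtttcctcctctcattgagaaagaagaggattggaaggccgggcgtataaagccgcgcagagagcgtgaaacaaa
ID2: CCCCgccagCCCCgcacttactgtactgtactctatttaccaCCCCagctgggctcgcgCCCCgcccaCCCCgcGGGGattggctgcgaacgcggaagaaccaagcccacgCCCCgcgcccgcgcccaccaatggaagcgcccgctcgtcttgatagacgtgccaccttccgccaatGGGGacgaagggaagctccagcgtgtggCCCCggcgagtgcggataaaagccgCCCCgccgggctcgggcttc
RANBP10: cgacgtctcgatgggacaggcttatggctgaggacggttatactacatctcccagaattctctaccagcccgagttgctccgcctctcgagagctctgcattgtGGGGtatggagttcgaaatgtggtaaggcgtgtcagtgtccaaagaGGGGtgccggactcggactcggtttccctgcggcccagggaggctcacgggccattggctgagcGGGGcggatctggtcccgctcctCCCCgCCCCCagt
CSF2: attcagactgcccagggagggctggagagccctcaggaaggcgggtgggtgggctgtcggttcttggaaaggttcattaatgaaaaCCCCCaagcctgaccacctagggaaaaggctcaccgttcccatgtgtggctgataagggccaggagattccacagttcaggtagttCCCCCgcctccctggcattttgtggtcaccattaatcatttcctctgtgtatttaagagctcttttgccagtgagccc
BPIFB3: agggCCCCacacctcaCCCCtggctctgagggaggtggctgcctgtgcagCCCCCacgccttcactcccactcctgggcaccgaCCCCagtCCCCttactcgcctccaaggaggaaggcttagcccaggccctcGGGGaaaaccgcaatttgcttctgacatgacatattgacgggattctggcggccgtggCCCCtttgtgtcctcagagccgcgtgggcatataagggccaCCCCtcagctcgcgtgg

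The 7 windows differed widely within and between fates. G and C made up 38.4% of the H3C6 window and 71.2% of the JKAMP window, although both peaks were lost. The H3C6 window held 0 such runs and the JKAMP window 5, all of G. The ID2 window held 10 runs, 8 of them of C, and the BPIFB3 window 8 runs, 7 of them of C. RND3 had 1 run, CSF2 2 and RANBP10 5, against a median of 4 over all windows. A count of runs describes these letters and names no site.

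Losses and narrowing made up most of the difference between the states. Of the proliferating peaks, 50908 or 50.1% were lost (95% Wilson interval 49.8 to 50.4, which like all intervals here covers counting error only). A further 21519 or 21.2% were narrowed (20.9 to 21.4) and 5344 or 5.26% were split (5.12 to 5.4). Widths were kept in 14.3%, and 6.52% were widened, 1.92% fused into a wider senescent peak and 0.668% complex. Lost peaks were short, with a median of 390 bp, and covered 28.7% of the proliferating bases. Split peaks were few but had a median width of 2484 bp and covered 17.6% of the bases, against 16.7% under the more numerous peaks that kept their width. From the senescent side, 29255 peaks or 34.3% were new (33.9 to 34.6). The rest were 25.2% in narrowed pairs, 17.1% in pairs of kept width, 7.76% in widened pairs, 13.7% pieces of split peaks, 1.12% fused and 0.889% complex. In all, 42.1% of the proliferating bases lay under a senescent peak and 66.5% of the senescent bases under a proliferating one.

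**Figure D1:**
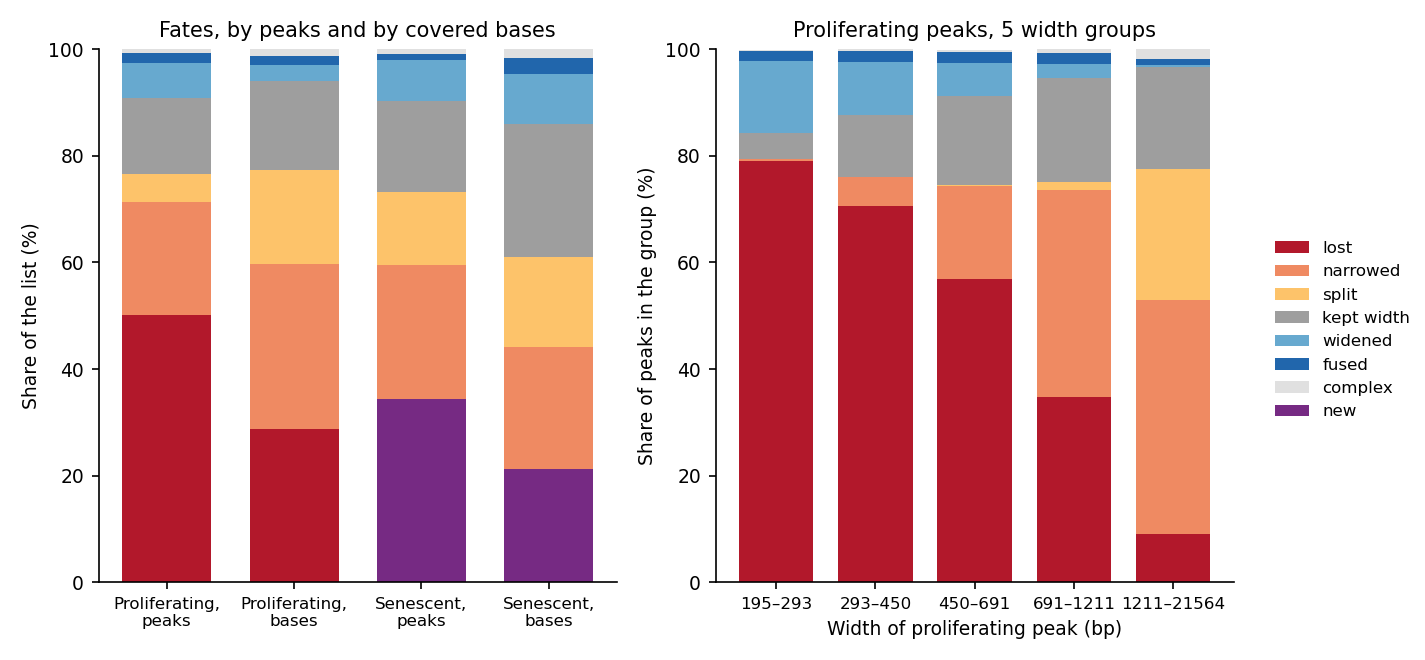
Left, stacked shares of each list (%) by fate, counted in peaks and in covered bases. Right, the fates of proliferating peaks in 5 width groups of equal size, with width in bp on the horizontal axis: 79% of the shortest group were lost against 9.09% of the widest, and 24.6% of the widest were split.

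Fate went with the width and the score of a peak. In the shortest of 5 width groups (195 to 293 bp) 79% of the proliferating peaks were lost, in the widest (1211 to 21564 bp) 9.09%. Splitting ran the other way, up to 24.6% in the widest group. Its 0% in the shortest group was fixed in advance, since no 2 senescent peaks lay closer than 301 bp. By the authors' score, which ranks peaks within a list, 77.1% of the lowest group were lost and 12.8% of the highest. New peaks had the same profile in the senescent list, 59.6% of its shortest and 5.55% of its widest group. The median score was 18 for lost, 31 for narrowed and 44 for split peaks. With only the highest-scoring proliferating peaks used, up to the same number of covered bases as in senescent cells, 25.1% of proliferating peaks were lost, 35% narrowed and 12.2% split, 2.48% of senescent peaks were widened, and 57.7% of the senescent peaks were new.

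Most lost peaks had no senescent peak close by. The nearest senescent peak lay at a median of 3872 bp, within 1000 bp for 20.8% and beyond 10000 bp for 29%. New peaks lay at a median of 4340 bp from the nearest proliferating peak. Of the lost peaks, 58.9% were inside protein-coding or lncRNA genes and 26.3% outside them. Only 14.8% reached a gene end, meaning 1000 bp around an annotated end or a listed start site, against 25.9% of all proliferating peaks. Split peaks had the opposite placement, with 69.4% at a gene end, and narrowed peaks had 37.5%. New senescent peaks were the least often at a gene end, 11.2% against 28.9% of the senescent list. Within the widest group, 5.64% of gene-end peaks were lost against 15.2% of those inside genes, and 29% against 17.9% were split.

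Among 19970 protein-coding genes, counted with 1000 bp on each side as the locus, 15481 had a peak in both lists. A proliferating peak without any senescent one was found at 1100 of the 16581 genes with a proliferating peak (6.63%). The reverse held for 472 of the 15953 genes with a senescent peak (2.96%). Of the 17053 genes with a peak in either list, 14401 or 84.4% had a smaller covered part of the locus in senescent cells and 2645 a larger one. At gene ends, 4599 genes had a lost peak, 6975 a narrowed one and 4007 a split one. A new senescent peak lay at the end of 2052 genes. No senescent peak lay within 5000 bp of 589 genes with a lost gene-end peak, and no proliferating peak within 5000 bp of 165 genes with a new one.

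Among these 589 genes the widest lost peaks belonged to a histone gene, a stress kinase partner, an RNA-binding protein, a chromatin enzyme and a cytokinesis scaffold. H3C6, which encodes a replication-dependent histone H3, had a proliferating peak of 3318 bp at chr6:26222917-26226234 with a score of 33. JKAMP, a membrane protein that binds JNK, had 3158 bp at chr14:59481959-59485116, score 36. PABPC4, a cytoplasmic poly(A)-binding protein, had 3056 bp at chr1:39574028-39577083, score 25. All 3 loci had no senescent peak, and the covered part of H3C6 was 57.7% in proliferating and 0% in senescent cells. PHF8, a histone demethylase on the X chromosome, had 3049 bp and ANLN, the anillin that organises the cleavage furrow, 2890 bp. Their scores, 31 and 36, lay above the median of 18 for lost peaks.

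Lost peaks also came in unbroken rows, the longest of which lay over the 5S ribosomal RNA genes. A row of 30 lost peaks, with no other proliferating peak between them, spanned chr1:228515358-228648422. This stretch holds the 17 annotated genes RNA5S1 to RNA5S17, between 228610266 and 228646158, where 23 of 23 proliferating peaks were lost and 0 senescent peaks were called. Proliferating peaks reached 6 of the 17 genes themselves. Their widths ran from 195 to 1098 bp and their scores from 12 to 30. The 5S copies are nearly identical, so reads from them cannot be assigned to a copy with certainty. Other rows of lost peaks covered matrix genes of fibroblasts. There were 17 over COL3A1 and COL5A2 (chr2:188978195-189210340) and 15 over COL6A3 (chr2:237330370-237369880). A row of 19 lay by the transcription factor genes ZIC1 and ZIC4 on chromosome 3, and 15 by SIM1 and ASCC3 on chromosome 6.

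Short non-coding genes had few senescent peaks. Of 443 tRNA genes, 228 lay under a proliferating peak and 70 under a senescent one. The counts were 54 and 11 of 154 snRNA genes, 82 and 26 of 1196 snoRNA genes, and 350 and 208 of 1911 miRNA genes. For lncRNA genes they were 8212 and 7343 of 18177. A gene counted when any peak reached it, so gene length enters these counts, and its part was not tested. Of the 161 proliferating peaks over tRNA genes 29.8% were lost, 40.4% narrowed and 19.3% split, against 50.1%, 21.2% and 5.26% of all proliferating peaks. Of the 52 over snRNA genes 26.9% were lost and 50% narrowed. These peaks were wide, with medians of 1505 and 1732 bp against 550 bp for all proliferating peaks. In the widest of the 5 width groups (1211 to 21564 bp) 9.09% of all proliferating peaks were lost, 43.9% narrowed and 24.6% split. The lost shares over tRNA and snRNA genes were thus below that of all peaks but above that of the widest group. Members of these families have near-identical copies, and their assignment to a single gene is uncertain.

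Narrowed peaks were cut to about 0.5 of their width and mostly stayed within their former limits. The median went from 1064 bp to 459 bp, and the median ratio of the widths was 0.499. In 73.7% of the pairs the senescent peak lay wholly inside the proliferating one, and the median loss was 532 bp. Among these inside pairs the side that lost more held a median of 74.2% of the lost bases, a share that cannot be below 50%. The 3730 narrowed pairs over start sites of 1 strand had lost a median of 337 bp on the upstream and 370 bp on the downstream edge, and the downstream edge lost more in 52.3% of them (50.7 to 53.9). The threshold of 0.75 cut through a smooth distribution, with 2171 pairs from 0.7 to 0.75 and 2107 from 0.75 to 0.8. Over all pairs the median ratio was 0.747, and with ratios divided by it 13.2% of proliferating peaks were narrowed and 14.5% of senescent peaks widened. When partners had to share 50% of each other, 9.69% were narrowed, 3.52% widened and 69.6% new; a width limit of 0.5 gave 10.6% and 3.09%.

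**Figure D2:**
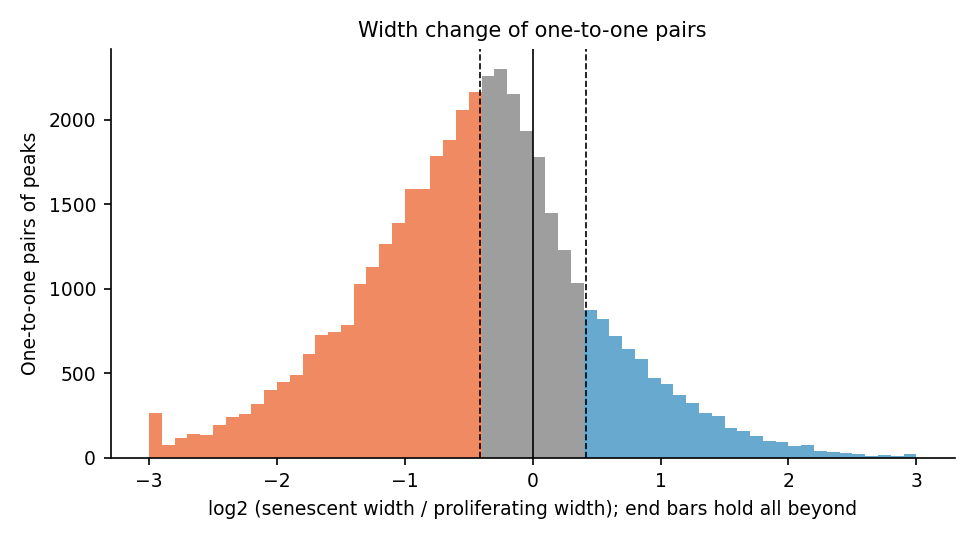
Number of one-to-one pairs by the log2 ratio of senescent to proliferating width, in steps of 0.1. Dashed lines mark the limits of narrowed (left) and widened (right), and the bulk of the pairs lies left of 0, with a median ratio of 0.747.

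Large cuts fell on genes of the cytoskeleton, histones and signalling. RND3 had a proliferating peak of 4790 bp and a senescent one of 361 bp. H1-4 and H2BC5, a linker histone and a histone H2B gene, shared a peak of 4537 bp that became 369 bp. YWHAH, a 14-3-3 protein, had 4430 and 386 bp. The neighbours ARPC5, a subunit of the Arp2/3 actin nucleator, and RGL1, a Ral exchange factor that binds Ras, shared 4384 and 376 bp. At RND3 the remaining peak lay off the locus, of which 42.2% was covered in proliferating and 0% in senescent cells.

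Split peaks were wide, and 2756 of the 5344 held a start site of the promoter table. Of the 5344, 4553 were in 2 pieces, 623 in 3 and 168 in 4 or more, with 11709 pieces in all. A median of 56.3% of a split peak's bases stayed covered, and the gap between pieces had a median of 465 bp. No 2 senescent peaks anywhere lay closer than 301 bp and no 2 proliferating peaks closer than 305 bp, so shorter gaps could not appear. With peaks of one list less than 500 bp apart joined first, 4.12% of proliferating peaks were split. When 50% of both peaks had to overlap the share was 0%, since 2 pieces cannot each hold that much.

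The most divided peak lay at the homeobox genes HOXB3, HOXB5 and HOXB6, which set position along the body axis, and reached the 1000 bp flank of HOXB4. It spanned 21564 bp at chr17:48578840-48600403 and matched 12 senescent peaks of 195 to 2838 bp, together 15116 bp. TBX5, a T-box factor of heart, limb and lung development, had a peak of 17008 bp over 11 pieces of 318 to 992 bp, together 5258 bp. ID2, an inhibitor of basic helix-loop-helix factors, had 10416 bp over 8 pieces, the largest 2423 bp and the others 268 to 824 bp. CCND1, which encodes cyclin D1, had 13631 bp over 7 pieces of 195 to 1965 bp, together 5223 bp. RHOF and SETD1B, an H3K4 methyltransferase, shared 12517 bp over 7 pieces that summed to 7912 bp. The pieces thus made up less of the former width at TBX5 and CCND1 than at HOXB3 to HOXB6.

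**Figure D3:**
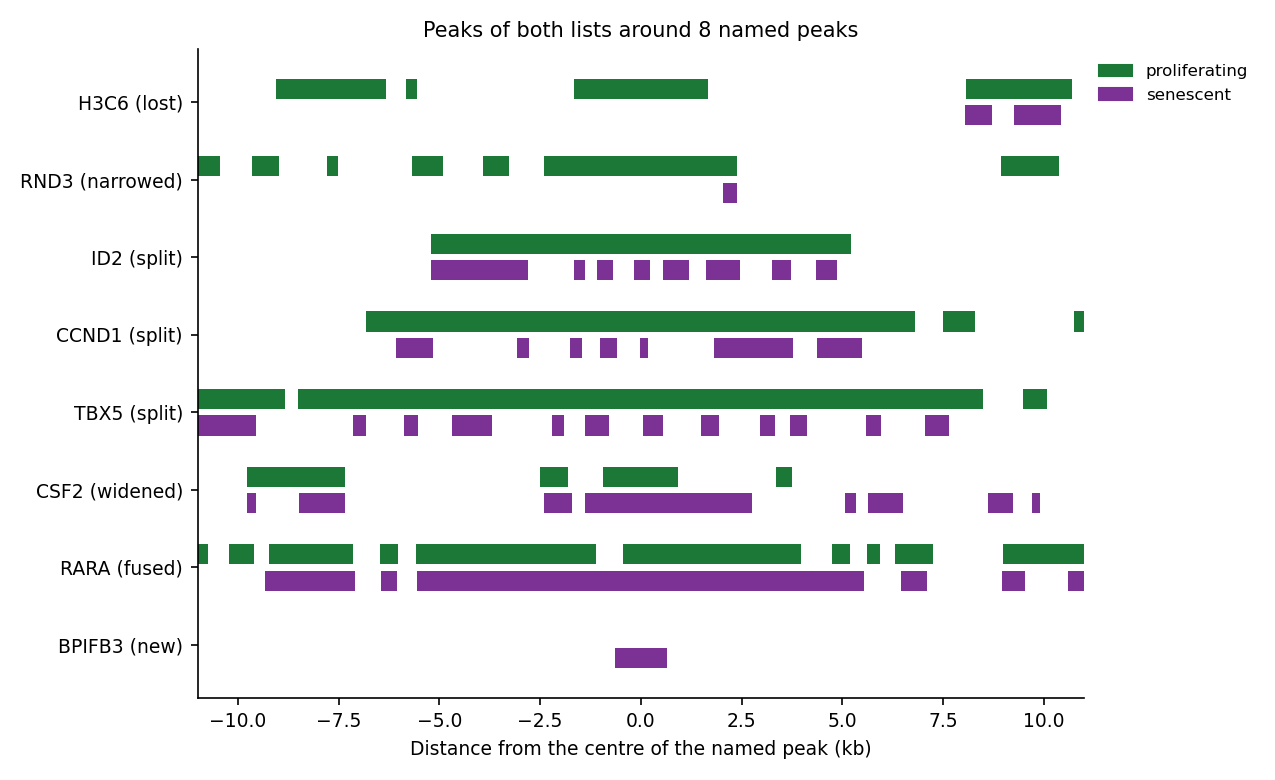
Peaks of both lists (proliferating above, senescent below) around 8 named peaks, by distance in kb from the centre of the named peak. The peak at H3C6 has no senescent partner, that at RND3 keeps 361 bp at an edge, those at ID2, CCND1 and TBX5 lie over 8, 7 and 11 pieces, that at CSF2 is wider in senescent cells, 3 peaks at RARA lie under 1 senescent peak, and BPIFB3 has a senescent peak alone.

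The gene-end peaks of kept width with the highest ranks in both lists follow. SLC29A1, a nucleoside transporter, had 677 bp and 706 bp, a peak that also reached the flank of MYMX, a muscle fusion factor. RANBP10, a Ran-binding protein, and TSNAXIP1 shared 1575 and 1653 bp. PARL, a mitochondrial protease, had 1097 and 831 bp, CAT, the catalase gene, 1925 and 1778 bp, and BAK1, a pro-apoptotic BCL2 relative, 1390 and 1178 bp. All 5 peaks also overlapped a quiescent peak, against 16.3% of all proliferating peaks of kept width. These 5 were picked for their high scores in both lists, so they do not stand for the class.

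Widening and fusion were rarer than narrowing and splitting. Among widened gene-end peaks the one that gained most bases lay at CSF2, which encodes the SASP cytokine GM-CSF. It had 1859 bp in proliferating and 4159 bp in senescent cells, and 37.9% and 70.8% of its locus was covered. FBXO41, an F-box protein gene, had 195 and 2333 bp, and the lipocalin genes LCN10 and LCN6 shared 491 and 2548 bp. HYI, which encodes an isomerase of hydroxypyruvate, had 204 and 1956 bp, and SERPING1, the C1 inhibitor of complement, 839 and 2401 bp. Widened peaks as a class went from a median of 329 to 674 bp. Of the 958 fused senescent peaks 922 held 2 proliferating peaks and none more than 3. At RARA, a retinoic acid receptor, peaks of 4461, 4429 and 448 bp lay under 1 senescent peak of 11101 bp. FKBP2, a peptidyl-prolyl isomerase, and PPP1R14B, a phosphatase inhibitor, lay under a fused peak of 7125 bp, FMNL1, a formin, under 5148 bp, and SYT8, a synaptotagmin, next to one of 4512 bp. BAZ2A, a silencer of ribosomal DNA, and ATP5F1B, an ATP synthase subunit, shared 4900 bp.

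The widest new gene-end peaks lay at genes known mainly from epithelia and the retina, and were narrow beside the lost ones. BPIFB3, a member of a family of secreted lipid-binding proteins, had a senescent peak of 1282 bp at chr20:33053566-33054847, score 20. SLPI, a secreted inhibitor of leukocyte proteases, had 1065 bp, EDA, the ligand ectodysplasin, 1024 bp, KRT3, a keratin of the cornea, 984 bp, and CDHR1, a photoreceptor cadherin, 980 bp. No proliferating peak lay within 5000 bp of these genes. Their scores ran from 13 to 20, around the median of 16 for new peaks. Some loci held many new peaks. Among the named genes of the lists described below, RBFOX3, a neuronal splicing factor, had 48 new peaks among 67 senescent ones. RANBP2, a nuclear pore gene, had 44 of 107 and KCNQ1, a cardiac potassium channel, 38 of 73. SLC25A48, a mitochondrial carrier, had 25 of 33, and FBLN2, the matrix protein fibulin 2, 14 of 17. KCNMA1 had 17 of 51 and ZNF469 17 of 56. Over all protein-coding loci 28.7% of senescent peaks were new. The longest row of new peaks, 16, lay by KHDRBS2 at chr6:58240768-62848496. Rows of 15 and 14 lay on chromosome 8, and another of 14 by CELF4, a neuronal RNA-binding protein, at chr18:37345626-37383769.

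The start site itself was not the part that changed most. Start sites and strand came from the RefSeq promoter table, which holds a start for 15811 of the 19970 protein-coding genes, and start sites of chromosome 8 were not used here. Of 22000 protein-coding start sites, 8549 lay under both a proliferating and a senescent peak, 5545 under a proliferating peak alone, 389 under a senescent peak alone and 7517 under neither. In the profile by distance, over 22011 sites, 64.1% of start bases lay under a proliferating and 40.6% under a senescent peak, a ratio of 0.634. The senescent share changed little over the last 150 bp before the start and was higher after it. It stood at 40.2% at 150 bp upstream, 39.7% at 50 bp upstream and 44.1% at 150 bp downstream, where the ratio was highest at 0.686. At 1500 bp the ratio was 0.564 upstream and 0.544 downstream.

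Within 1500 bp of the start, the least covered point of split peaks lay just upstream of it. Of the split-peak positions 500 bp upstream of a start, 66.8% were still under a senescent peak. This share was 50.7% at 50 bp upstream and 60.6% at 150 bp downstream. It was as low, 50.6%, at 2100 bp downstream, where 993 start sites remained. Within narrowed peaks it was 58% at 100 bp upstream, 68.5% at 150 bp downstream and 40.8% at 800 bp downstream. Within peaks of kept width it was 94.2% and 95.9% at 100 bp upstream and downstream. In narrowed peaks 59.3% of the starts but 47.2% of the bases of these peaks remained covered. Split peaks had the reverse, 52.7% of starts against 58% of bases, and 22.1% of their gaps held a start site. Narrowing mostly takes bases from the edges and a split needs an inner gap. Any point well inside a peak would thus tend to differ in this way by construction. No other inner point was read, so what is particular to start sites was not tested.

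**Figure D4:**
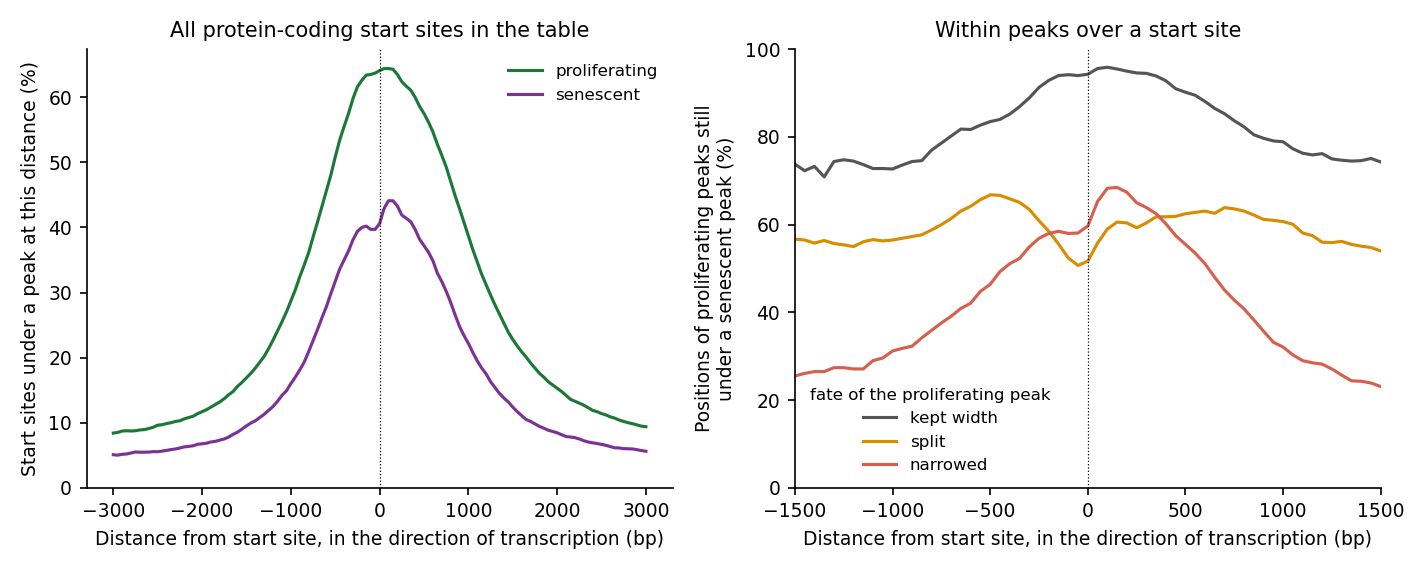
Left, share of protein-coding start sites under a peak (%) by distance from the start site in bp, for both lists. Right, among positions inside a proliferating peak over a start site, the share still under a senescent peak (%), by fate of the proliferating peak. Within the 1500 bp shown, split peaks have their minimum of 50.7% at 50 bp upstream, while narrowed peaks reach 68.5% at 150 bp downstream.

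Promoter sequence differed with fate. G and C made up a median of 62.3% of the 300 bases around all 22000 start sites, from 250 before to 50 after. It was 68.3% under split peaks, 65% under narrowed peaks, 65.3% under peaks of kept width and 60.7% under lost peaks. Start sites under a senescent peak alone had 58.3%, and those under no peak 52%. The ratio of observed to expected CpG was 0.849 under split peaks, 0.842 under narrowed peaks and 0.79 under lost peaks. It was 0.358 under senescent peaks alone, near the 0.306 of start sites with no peak. GGGG was found in 90.1% of split, 80.4% of lost and 84.8% of senescent-alone promoters, against 81.1% of all. These windows share bases where starts lie close together, and no test was made.

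Peaks of quiescent cells give a readout that the fates did not use. Of all proliferating peaks, 8.26% overlapped a peak of quiescent cells. The share was 42.2% for split, 16.3% for kept, 14.6% for narrowed, 1.99% for widened and 0.471% for lost peaks. Only 13 of the 29255 new peaks, or 0.0444%, overlapped a quiescent peak. Wider peaks meet more peaks of any list, and the part of width in this order was not tested.

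To see which functions each fate held, 37 gene lists were compared with all protein-coding loci. Over all loci 47.9% of the 66421 proliferating peaks were lost, 22.1% narrowed, 14.4% kept in width, 5.97% widened and 6.75% split, and 28.7% of the 54711 senescent peaks were new. Because width went with fate, lists were also read on the 20187 proliferating peaks over 1000 bp alone. Of these 11.5% were lost, 43.3% narrowed and 21.6% split. Within peaks over 1000 bp width still differed between lists, and its part was not tested. At or above the median score of each list, 25.7% of these peaks were lost and 11.8% split. With gene ends alone 24.4% of proliferating peaks were lost, 6.67% of wide ones were lost and 10.3% of senescent peaks were new, and with equal covered length 22.1%, 7.5% and 51.3%.

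Replication-dependent histone genes, which supply histones in S phase, had the largest share of wide peaks lost of the 37 lists. It was 16 of 45, or 35.6% (23.2 to 50.2), against 11.5% over all loci. Of all their proliferating peaks 27 of 60, or 45%, were lost, against 47.9% over all loci. With gene ends alone it was 24 of 55, or 43.6%, against 24.4% over all loci. All 65 of their 68 genes with a proliferating peak had less of the locus covered in senescent cells, against 84.4% of all genes with a peak. Of these 65 genes 24 had no senescent peak, against 6.63% of all genes with a proliferating peak. No senescent peak at these loci was new (0 of 37, 95% Wilson upper limit 9.41%), against 28.7% over all loci. The median width ratio of their pairs was 0.306, against 0.729 over all loci. The widest peak of the gene was lost at 21 genes, narrowed at 27 and split at 9. H2AC6, a histone H2A gene, had a peak of 4301 bp that became pieces of 341 and 253 bp. Many of these genes are neighbours that share a peak, so genes are not independent counts.

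Losses were also frequent at the 9 fibroblast markers, less evenly at matrix genes. Among the 9 fibroblast markers 33 of 54 proliferating peaks were lost, 61.1% (47.8 to 73), and 5 of 17 wide ones. DCN, the proteoglycan decorin, had 5 proliferating peaks and 0 senescent ones, COL3A1 5 and 1, VIM, the intermediate filament vimentin, 4 and 1, and LUM, lumican, 1 and 0. DCN, COL3A1, VIM and LUM were named after their values were seen. COL1A2 had 12 proliferating peaks, of which 10 were lost, and its widest, 5362 bp, became pieces of 727, 1543 and 201 bp. COL1A1 differed, with a peak of 13248 bp over pieces of 2230, 529, 5382 and 1154 bp, and 97.2% and 64.4% of its locus covered. Over 44 collagen genes, 20.3% (14.3 to 27.9) of 133 wide peaks were lost, but 3.12% with gene ends alone, against 6.67% of all loci there. The share was 11.9% at matrix glycoproteins and 5.88% at matrix proteases, near or below the 11.5% of all loci, 18.9% at HOX genes and 18.2% at DEAD and DEAH box helicases. PDGFRB, a growth factor receptor of fibroblasts, had its widest peak, 7923 bp, fused into a senescent peak of 9111 bp. The list of 23 markers of other cell types stood apart on the new side, with 66 of 124 senescent peaks new, 53.2% (44.5 to 61.8), of which RBFOX3 alone gave 48.

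In the main setting, splitting was most frequent at the following 5 lists. Of wide peaks, 15 of 37 were split at HOX genes, 40.5% (26.3 to 56.5), and 17 of 43 at genes of MAPK feedback, 39.5% (26.4 to 54.4). The share was 37.7% (25.9 to 51.2) at SASP genes, 34.9% (24.3 to 47.2) at Polycomb and SWI/SNF genes and 33.3% (22.9 to 45.6) at immediate early transcription factors. All loci had 21.6%. With gene ends alone the order differed: 51.9% at MAPK feedback, 50% at fibroblast markers (4 of 8), 48.8% at Polycomb and SWI/SNF, 46.9% at collagens (19.5% in the main setting), 46.7% at HOX genes, 45% at matrix proteases and 41% at matrix glycoproteins, ahead of 40% at SASP and at immediate early genes and 26.4% of all loci. The median over genes of the widest peak was 4228 bp for MAPK feedback, 4129 bp for immediate early factors, 2629 bp for SASP, 2618 bp for HOX and 2478 bp for Polycomb and SWI/SNF genes. It was 4059 bp for actin genes, where 31.1% were split, and 1673 bp for homologous recombination and Fanconi genes, where 11.1% (4.84 to 23.5) were split.

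Among MAPK feedback genes, most of which damp ERK signalling, 20 of 20 had less of the locus covered in senescent cells (84.4% of all genes with a peak), and the widest peak of 13 was split. DUSP5, a nuclear ERK phosphatase, had 6424 bp over pieces of 1736, 956 and 849 bp. SPRY4, a Sprouty inhibitor of receptor signalling, had 5934 bp over 882, 2501 and 196 bp, and DUSP10, a phosphatase of p38 and JNK, 4059 bp over 1598 and 243 bp. SPRED2, a Sprouty-related inhibitor, kept 3071 and 3223 bp. DUSP1 and PHLDA1, named after their values were seen, had the largest differences in coverage of these 20 genes, 74% and 4.02% for the phosphatase DUSP1 and 59% and 5.04% for PHLDA1. Among immediate early factors, FOSL1, an AP-1 subunit, had 10623 bp over 1899, 1546 and 330 bp, and 85.7% and 16.5% of the locus covered. IER2 had 8170 bp over 680, 2622, 2218 and 204 bp and NR4A2, a nuclear receptor, 4383 bp over 2525 and 724 bp.

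SASP genes were divided between fates. Of 38 genes, 26 had less and 11 more of the locus covered in senescent cells, while 84.4% of all genes with a peak had less. CSF2 was joined by genes named here after their values were seen. CSF3, which encodes G-CSF, had its widest peak of 2629 bp fused into a senescent peak of 5024 bp, and LIF, a cytokine of the interleukin-6 family, 3140 bp into 5763 bp. CXCL3, a neutrophil chemokine, had 2038 bp fused into 2401 bp, and CXCL2 had 1509 and 1749 bp. Coverage of the locus was 77.3% and 89.5% at CSF3, 71% and 80.7% at LIF, and 49.8% and 58.5% at CXCL3. IGFBP3 and IGFBP7, which encode insulin-like growth factor binding proteins, and VEGFA had less of the locus covered in senescent cells. IGFBP5 differed little, with 32.8% and 29.7% covered and 3 new peaks among its 10 senescent ones. IGFBP3 had 5193 bp over 197 and 385 bp, and 38.2% and 3.75% covered. IGFBP7 had 2292 and 300 bp, and VEGFA, the vascular growth factor, 7744 bp over 3014, 2733 and 412 bp. IL6, also named after its values were seen, had 43.9% and 25.8% covered, with its widest peak of 2937 bp split. CXCL8, the chemokine interleukin 8, had 2 proliferating peaks, both lost, and 0 senescent ones.

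At CDK inhibitors and p53 targets 2 of 37 wide peaks were lost, 5.41% (1.5 to 17.7). The 11.5% of all loci lies within this interval. Of all their proliferating peaks 33.9% (23.1 to 46.6) were lost, against 47.9% over all loci. Less of the locus was covered at 23 of 24 genes, against 84.4% of all genes with a peak. CDKN1A, the p21 inhibitor, had 5061 bp over 195, 2078 and 678 bp. BBC3, the pro-apoptotic PUMA, had 7644 bp over 4103, 572 and 586 bp, and GADD45B 6150 bp over 1019, 820 and 1585 bp. Among NF-kappaB genes, NFKBIA, the inhibitor IkappaB alpha, had 3768 and 563 bp, BCL3 6148 bp over 2031, 247, 390 and 421 bp, and NFKB2 3662 bp over 582 and 1316 bp. In the Polycomb and SWI/SNF list, SMARCD3 had 9801 bp over 747, 2199, 2189 and 2100 bp. In the nuclear lamina and HMG list, HMGA1, a protein of senescence-associated heterochromatin foci, had 8757 bp over 3901 and 3775 bp, and LMNA 4016 bp over 780 and 1320 bp.

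Narrowing of wide peaks differed between lists, also among those of protein synthesis. Against 43.3% over all loci it was 60% of 45 wide peaks at homologous recombination and Fanconi genes. It was 58.8% of 51 at translation initiation factors and 58% of 69 at mitochondrial ribosomal proteins. Common fragile site genes had 57.1% of 35, replication genes 56.9% of 58 and cytosolic aminoacyl-tRNA synthetases 56% of 25. Cytosolic ribosomal proteins had 43.8% of 105. Lower shares included 18.6% of 43 at MAPK feedback and 24.5% of 53 at SASP genes. These narrowing shares carry no interval and were not recomputed in other settings. At the synthetases 0 of 25 wide peaks were lost (95% Wilson upper limit 13.3%), against 11.5% over all loci. RPL10A, a cytosolic ribosomal protein, had 4998 and 2512 bp, a peak shared with its neighbour FANCE. KARS1, lysyl-tRNA synthetase, had 3845 and 1326 bp, and MRPS2 3376 and 1605 bp. All 41 translation initiation factors and 33 of 33 SR and hnRNP splicing genes with a proliferating peak had less coverage in senescent cells, as did 84.4% of all genes with a peak. HNRNPR, an RNA-binding protein, had 4572 and 995 bp, and HNRNPUL2 4270 and 1053 bp.

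Genes of factors that remove or prevent R-loops were near the background in coverage. Among 30 such genes 27 had less and 3 more of the locus covered (84.4% of all genes with a peak had less). Of their 35 wide peaks 1 was lost and 54.3% were narrowed, against 11.5% and 43.3% over all loci. DHX9, an RNA helicase that unwinds RNA-DNA hybrids, had 2689 and 306 bp. TOP1, topoisomerase I, had 3767 bp over 880 and 363 bp, SRSF1, a splicing factor, 3481 bp over 900 and 1071 bp, and BRCA1 3966 bp over 1705 and 542 bp. From other nuclear lists, NXF1, the mRNA export receptor, had 3804 and 427 bp. BARD1, the partner of BRCA1, had 3785 and 1003 bp, and MCM7, a subunit of the replicative helicase, 4030 bp over 1304, 578 and 602 bp. CDCA8, a mitotic subunit of the chromosomal passenger complex, differed, with 3647 bp over 324 and 3025 bp and 8.02% and 8.4% of the locus covered.

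New peaks were frequent at several lists of tissue-restricted genes and at fragile site genes. Of senescent peaks, 51.2% (44.4 to 58) were new at common fragile site genes, 44.6% (40.5 to 48.8) at potassium channels and 39.4% (28.9 to 51.1) at keratins. Potassium channel genes also had a median width ratio of 0.873, against 0.729 over all loci. Of the 95 genes, some without a peak, 32 had more and 50 less of the locus covered in senescent cells. Among all 17053 genes with a peak, 2645 had more and 14401 less. KCNH6 had 7 proliferating and 9 senescent peaks, of which 3 were new. At the other end 1.39% (0.246 to 7.46) of senescent peaks were new at HOX genes, 4.76% (1.63 to 13.1) at splicing genes and 5.5% (2.55 to 11.5) at respiratory chain subunits. New peaks are short and of low score, and 58.9% of the lowest score group of the senescent list were new. The part of score in these shares was not tested.

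**Figure D5:**
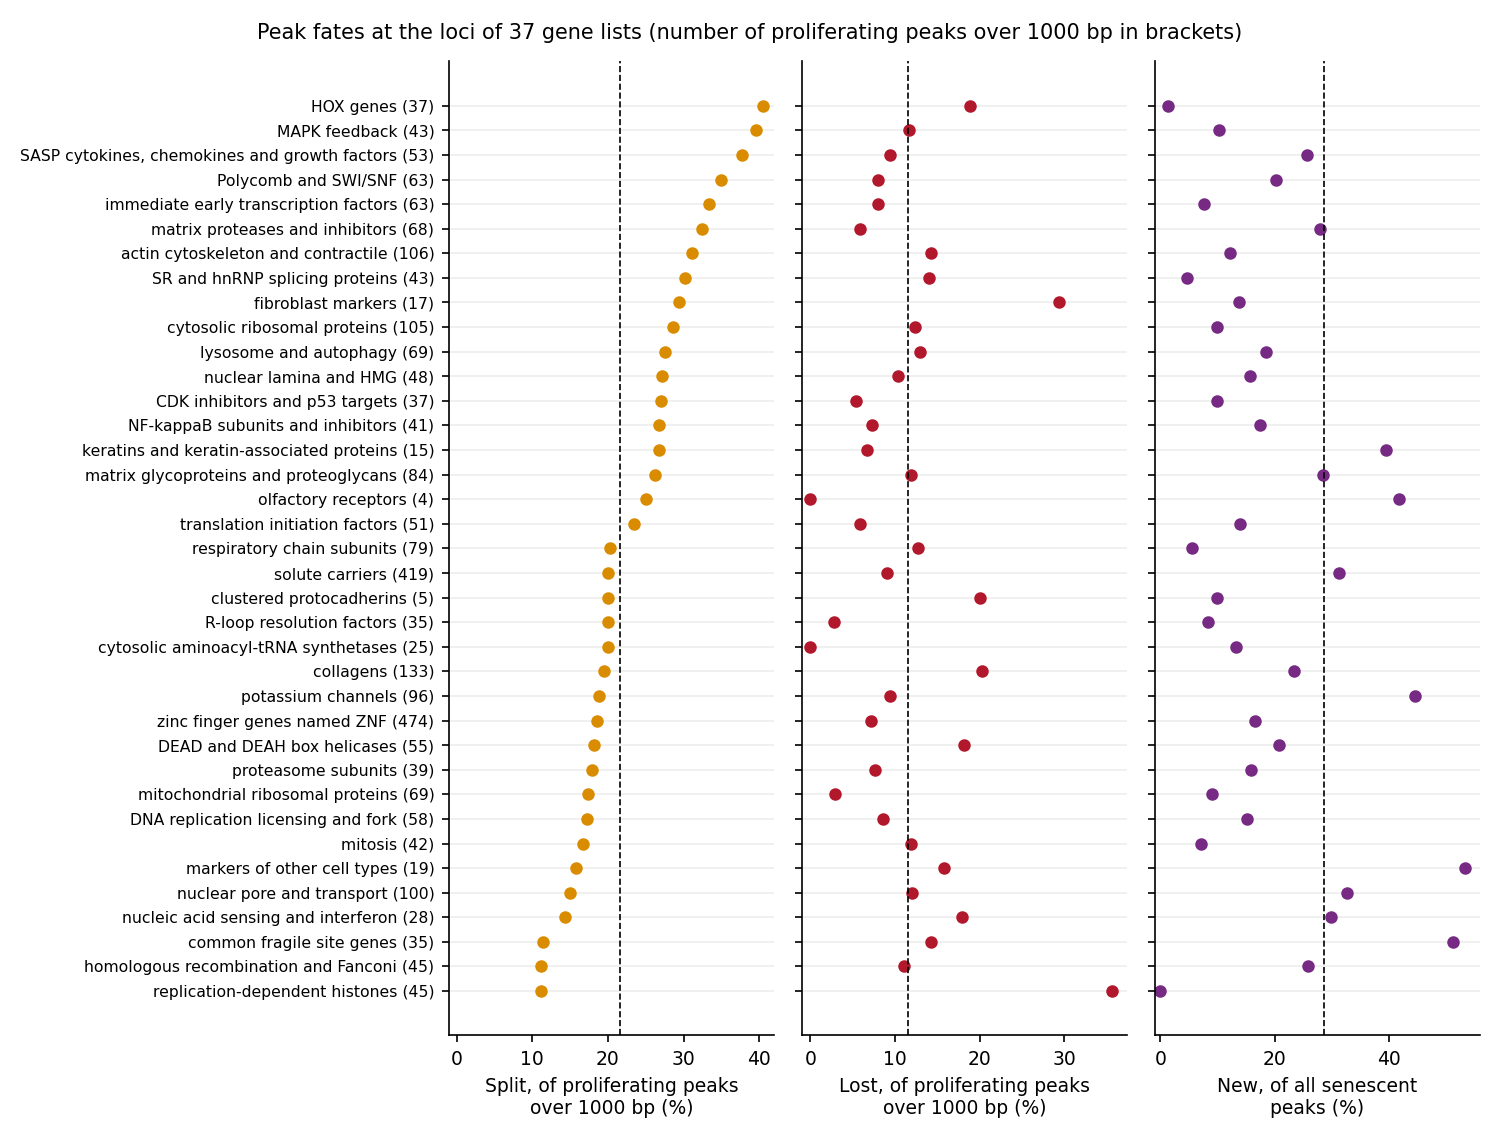
Each row is 1 of 37 gene lists, with its number of proliferating peaks over 1000 bp in brackets. Points give the share (%) of those peaks that were split (left) or lost (middle) and the share of senescent peaks that were new (right), and dashed lines give all protein-coding loci (21.6%, 11.5% and 28.7%): HOX and MAPK feedback genes have the highest split shares, histone genes the highest lost share and markers of other cell types the highest new share.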

How the data were processed

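MapR libraries of IMR90 cells were compared through the peak lists that the authors deposited, 1 library per state. Each list gives peak positions and a score, which the authors assigned and whose scale is not stated; the score served only to rank peaks within a list. The submitters' processing notes name Bowtie2 2.4.5, MACS2 2.2.7.1, FastQC 0.11.9 and build GRCh38, without roles. Caller settings, any control library and filters on reads were not stated. Wide or faint signal that a caller cuts at another level changes width, splits and losses together.

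Peaks were matched in Python 3.11.15 with pandas 2.3.3 and numpy 2.4.6, and the matching was tested on simulated peaks. Genes came from the RefSeq table of GRCh38.p14. Where a share carries an interval, it is a 95% Wilson interval. The members and gene lists were chosen with earlier results of these data known. Named genes are up to 5 a fate at gene ends (the widest lost or new peak, most bases lost or gained, most pieces, or best rank in both lists) and, from each list, up to 3 with the widest proliferating peak and 2 with the widest new peak; not all are printed. Alternatives were other overlaps, score thresholds, equal numbers or lengths, joined peaks, other width ratios and windows.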

Additional observations from a re-analysis of the deposited data

How the results depend on the processing

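With 50% of both peaks overlapping, 74.4% of proliferating peaks were lost, 9.69% narrowed and 0% split, and 69.6% of senescent peaks were new and 3.52% widened. Keeping each list's upper score range, from its median, gave 24.9% narrowed, 4.81% split, 35.4% new and 4.23% widened, with 50.1% lost as before. Equal numbers of peaks gave 44.6% lost, 24.4% narrowed, 6.26% split, 37.9% new and 6.43% widened. Equal covered length gave 25.1%, 35%, 12.2%, 57.7% and 2.48%, with fewer and higher-scoring proliferating peaks by construction. Joining peaks under 500 bp apart gave 48.7%, 23.2%, 4.12%, 34.8% and 8.18%. Leaving out dense bins and giant peaks gave 50.5% lost and 34.8% new. Width ratios of 0.5 and 0.9 gave 10.6% and 27% narrowed and 3.09% and 11.4% widened, and ratios divided by their median 13.2% and 14.5%. At gene ends, where 28.7% were lost, 30.7% narrowed, 14.1% split and 13.3% new, windows of 500 bp gave 23.8%, 33.3%, 16.5% and 10.2%, and windows of 3000 bp 38.3%, 26%, 10.1% and 20%. Over protein-coding loci the shares lost, wide peaks split, wide peaks lost and new were 24.4%, 26.4%, 6.67% and 10.3% with gene ends alone, 46.7%, 11.8%, 25.7% and 29.7% at or above the median score, and 22.1%, 24.7%, 7.5% and 51.3% with equal covered length. For values whose alternative does not show the cause by construction, the cause was not tested. Of 37 lists, 27 stayed on the same side of all loci in these 3 settings for wide peaks split, 21 for wide peaks lost, and 31 for new peaks. No paired analysis was possible because there is 1 library per state.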
